A study of Mus musculus with 6 samples.

Results

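The genes described here encode the vacuolar ATPase (V-ATPase), the proton pump of the lysosome, and the proteins at the lysosome surface through which nutrients control the kinase complex mTORC1. They are 46 of the 52636 genes in the deposited tables, taken by symbol from a list of subunits and regulators, and 44 of them had enough counts to be tested. The list was chosen with earlier results of these data known. Transcripts were measured by RNA sequencing in the mouse macrophage cell line RAW264.7, of BALB/c origin. The 3 C2S libraries came from cells exposed for 24 h to 150 µg/ml of an extract named C2S, and the 3 PM_control libraries from cells not given it. Neither name is spelled out in the sources. Whether replicates were grown as separate cultures is not recorded, so the p-values measure the spread between these libraries, which may be technical. A single line stands for macrophages here, with no second line or primary cells.

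Lysosomes are kept acidic by the V-ATPase, whose V1 sector hydrolyses ATP in the cytosol and whose V0 sector carries protons through the membrane. On the lysosome the Ragulator complex anchors the Rag GTPases, which bring mTORC1 to the membrane when amino acids are plentiful, and the small GTPase Rheb then switches the kinase on. GATOR1, the sestrins, REDD1 and the TSC complex are brakes on this route, and folliculin with its FNIP partners acts on RagC and RagD. In macrophages, cells that digest much of what they engulf, lysosomes are abundant.

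Library totals ran from 8594473 to 10665867 estimated counts. Levels are given as CPM, a gene's counts scaled to the size of its library, and different genes are compared only in TPM, which also allows for transcript length. Summed TPM of 10 macrophage markers was 7006 to 7284 with C2S and 6817 to 7141 in the controls, with Mertk alone near 0. Of the 9 tested 5 rose and Cd14 fell, where 27.0% of all genes tested rose and 28.4% fell. Those that rose were Adgre1, Cd68, Lyz2, Itgam, whose reads are partly shared, and Csf1r, whose exons overlap Hmgxb3 over 15.1% of their length. Markers of fibroblasts, epithelium, T cells, B cells and neutrophils summed to at most 3.7 TPM in any library, and Col1a2, Epcam, Krt8, Cdh1, Cd3e, Trac, Ms4a1, S100a9 and Elane had no counts. Of 7 osteoclast markers 4 were tested, and Nfatc1 and Dcstamp fell, beside the 28.4% of all genes tested that fell. The summed TPM of the 7 markers went from 190 to 222 in the controls to 53.6 to 58.6 with C2S. Most of this was carried by Nfatc1 (152 to 187 against 32.6 to 36.4 TPM). Without that gene the sum was 34.5 to 38 against 17.6 to 23.2. Calcr had no counts, and Ctsk and Mmp9 were too low to test. Ctsk had 10, 12 and 16 counts with C2S against 2, 0 and 2, and Mmp9 13, 10 and 6 against 11, 3 and 6. In bulk RNA fewer cells with a transcript and less of it per cell cannot be told apart.

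The largest changes were in genes of regulators that act on the Rag or TSC branches, and most genes of the pump moved little. Folliculin (Flcn), its partners Fnip1 and Fnip2, the sestrin gene Sesn2 and the REDD1 gene Ddit4 rose between 3.31-fold and 14-fold in mean CPM, while Sesn1 fell 3.34-fold. Of the 44 tested members 18 rose and 10 fell in edgeR's quasi-likelihood test with Benjamini-Hochberg adjustment over all 11561 genes tested, at a threshold of 0.05. That is 40.9% higher and 22.7% lower, against 27.0% and 28.4% of all genes tested, and 63.6% called in either direction, against 55.4%. The 3 C2S values lay wholly on one side of the 3 control values in 28 of the 44, against 61.1% of all genes. At least 2-fold changes numbered 7, against 14.5% of all genes: Atp6v0a1, Flcn, Fnip1, Fnip2, Sesn2 and Ddit4 rose and Sesn1 fell. Without C2S replicate 3, 6 members fell. The median log2 fold change (C2S over PM_control) was 0.13, beside 0.00 for all genes tested. With library sizes alone as the scaling, 13 rose and 10 fell, and on log2(TPM + 1) 13 rose and 7 fell. Those scalings moved the median of all genes to -0.09 and -0.10 and the share of higher calls among all calls from 48.8% to 38.3% and 35.9%.

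**Figure D1:**
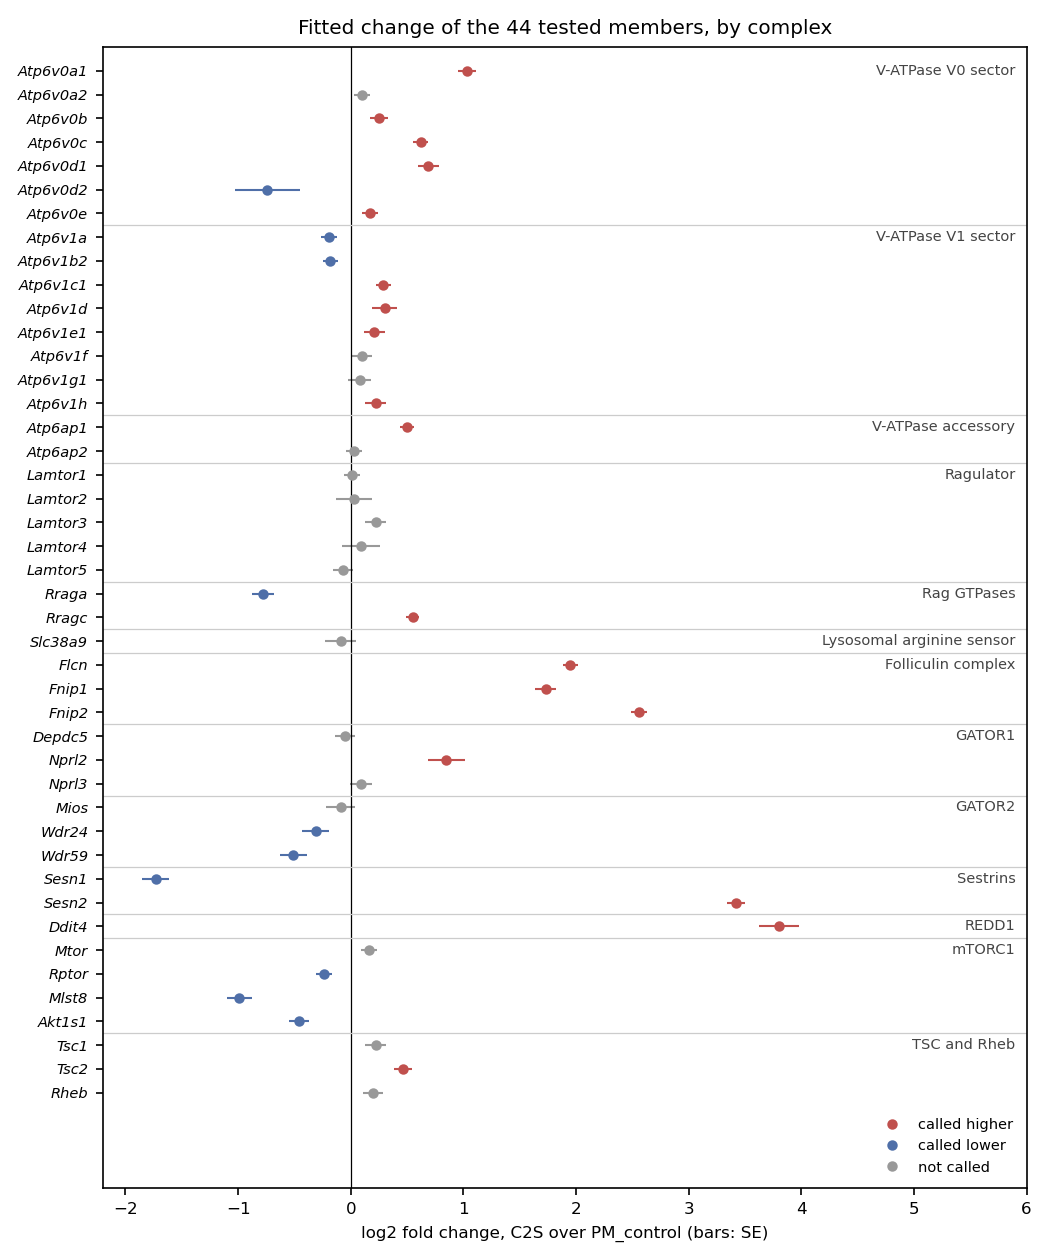
Fitted log2 fold change (horizontal axis, C2S over PM_control) of the 44 tested members, grouped by complex, with bars for the SE. Red marks genes that rose, blue genes that fell and grey genes that did not pass the test. Ddit4 (3.80), Sesn2 (3.42) and Fnip2 (2.56) lie farthest to the right and Sesn1 (-1.73) farthest to the left.

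Promoter stretches of 5 members are shown because they hold letters bound by 2 kinds of factor, and because these genes did not all move the same way. E-boxes (CACGTG, a palindrome) are bound by the MiT/TFE factors that control lysosomal genes, and TCACGTGA is the core of their CLEAR element, so each such match also counts as an E-box. TGACGTCA is the cyclic AMP response element, added to the search after the values were seen. Sequences are RefSeq promoters of build GRCm38.p6, 5′ to 3′ on the strand of the gene, upstream of the transcription start, with the matches in capitals.
Flcn (chr11:59810051-59810118, minus strand): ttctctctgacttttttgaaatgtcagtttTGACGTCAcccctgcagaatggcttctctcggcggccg
Fnip1 (chr11:54438074-54438139, plus strand): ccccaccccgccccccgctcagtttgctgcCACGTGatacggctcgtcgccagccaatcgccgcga
Rragc (chr4:123917291-123917356, plus strand): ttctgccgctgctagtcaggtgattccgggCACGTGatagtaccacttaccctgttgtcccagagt
Atp6v0b (chr4:117887330-117887395, minus strand): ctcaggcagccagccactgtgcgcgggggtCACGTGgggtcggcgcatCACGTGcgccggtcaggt
Atp6v1a (chr16:44139354-44139421, minus strand): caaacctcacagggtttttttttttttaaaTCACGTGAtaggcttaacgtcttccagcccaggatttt

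Of the 46 members 38 had an entry in the promoter table, which runs from 250 bases before a start to 50 after it. An E-box on either strand was found in 9 of the 38 (23.7%), against 8.09% of the 27025 genes in the table, both counted per gene over any of its promoters. These 9 were Atp6v0b, Atp6v0d1, Atp6v0e, Atp6v1a, Fnip1, Lamtor1, Lamtor4, Rheb and Rragc. The promoter table was not limited to the 11561 genes tested, so its shares do not compare the members with other expressed genes. The CLEAR core was found in 3 (7.89%, against 1.12%): Atp6v0d1, 4 bases before its start, Atp6v1a, 132 bases before, and Atp6v0e, just past its start. Of the 9 genes with an E-box Atp6v0b, Atp6v0d1, Atp6v0e, Fnip1 and Rragc rose, Atp6v1a fell, and Lamtor1, Lamtor4 and Rheb did not pass the test. Among the 44 tested members 40.9% rose and 22.7% fell, and among all genes tested 27.0% and 28.4%. The calls of Atp6v0b, Atp6v0e and Atp6v1a were lost under 8, 9 and 5 of the 18 alternatives, and those of Atp6v0d1 and Rragc under 1 each. The core of the C/EBP-ATF response element (TGATGNAA, either strand) was found in Atp6v0d1 and Lamtor4 (5.26%, against 4.51%), and the cyclic AMP response element in Flcn, 49 bases before its start (2.63%, against 2.03%). None of the 4 motifs was found for Sesn2, Ddit4 or Fnip2, and bases outside the windows were not searched. A match describes letters and is not a bound site.

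Of the 17 V-ATPase members 10 rose (58.8%, against 27.0% of all genes tested) and 3 fell (17.6%, against 28.4%), with a median log2 fold change of 0.21. In the membrane sector V0, 5 of 7 rose and 1 fell (median 0.25), and in the catalytic sector V1, 4 of 8 rose and 2 fell (median 0.16). Most of the changes were small, and 8 of the 13 calls were lost when some single library was left out. Atp6v0a1 kept its call under all 18 alternatives, and Atp6v0c, Atp6v0d1 and Atp6ap1 kept theirs under all but a test against 1.5-fold. Without PM_control replicate 3, 5 V-ATPase members rose, and without C2S replicate 1 or PM_control replicate 1, 6 rose. The number that fell was 0 without C2S replicate 3, 1 without C2S replicate 1, PM_control replicate 2 or PM_control replicate 3, and 2 without PM_control replicate 1. On log2(TPM + 1) 4 rose and 1 fell, and with library sizes alone 5 rose.

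Among the 17 V-ATPase members the largest change was in a gene of subunit a, the V0 subunit that forms the proton channel and sets where the pump goes. Atp6v0a1 (chromosome 11, 101009452 to 101063719, GRCm38) had 107, 110 and 101 CPM with C2S against 46.6, 57.7 and 51.4 in the controls. These groups stood apart, and the fitted log2 change was 1.03 ± 0.08 (its SE; edgeR, adjusted p = 2.36e-08). Its paralog Atp6v0a2 had 113, 134 and 123 CPM against 122, 114 and 108, values that overlapped (0.10 ± 0.07; adjusted p = 0.238). Tcirg1, which encodes the a3 subunit of macrophage and osteoclast lysosomes and was outside the member list, went from 199 ± 3.76 to 394 ± 7.16 CPM (SD, n = 3 per group; log2 fold change 0.99 ± 0.06; edgeR, adjusted p = 2.11e-10). Of the summed TPM of these 3 genes, which was 204 to 216 in the controls and 335 to 371 with C2S, Tcirg1 held 63.8% ± 2.42 in the controls and 68.5% ± 0.652 with C2S (SD, n = 3). The share of Atp6v0a1 was 14.2% ± 1.2 and 18.6% ± 0.89, and that of Atp6v0a2 22% ± 1.43 and 12.9% ± 1.21, with no overlap between groups for any of the 3.

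Subunits c and d of V0 also rose. Atp6v0c, which forms most of the rotating proteolipid ring, had 676, 674 and 614 CPM with C2S against 413, 464 and 398 (0.62 ± 0.07; edgeR, adjusted p = 7.38e-07), though some of its reads are shared with other genes and its values are uncertain. Atp6v0d1, part of the central stalk, had 150, 175 and 158 CPM against 85.8, 114 and 98.1 (0.69 ± 0.09; adjusted p = 4.86e-06). Each C2S value of both genes was above every control value. Atp6v0d2, the form of subunit d that is abundant in osteoclasts, was scarce and went the other way, with 2.06, 2.65 and 2.15 CPM against 3.21, 4.45 and 3.78 (-0.74 ± 0.29; adjusted p = 0.0389). Its share of the summed TPM of both d genes was 0.842% ± 0.0437 with C2S and 2.25% ± 0.0395 in the controls (SD, n = 3). The summed level of the osteoclast markers was also lower with C2S (17.6 to 23.2 against 34.5 to 38 TPM without Nfatc1, and 53.6 to 58.6 against 190 to 222 with it). Ctsk and Mmp9, both too low to test, were not lower in mean CPM, and Acp5 and Ocstamp did not pass the test. The part of these markers in the Atp6v0d2 result was not tested. The Atp6v0d2 call was lost without C2S replicate 1 (0.124), C2S replicate 3 (0.089), PM_control replicate 2 (0.149) or PM_control replicate 3 (0.0785), with DESeq2 (0.142), on log2(TPM + 1) (limma, 0.0656), with the GC trend removed (0.134) and with the replicate block (0.0505).

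The other V0 genes moved little. Atp6v0b, a ring subunit, was at 175 ± 24.8 against 147 ± 7.8 CPM (0.25 ± 0.08; edgeR, adjusted p = 0.0194), and Atp6v0e at 111 ± 6.63 against 98.1 ± 1.84 (0.17 ± 0.07; 0.0369). Exons of Atp6v0b overlap Gm12841 over 11.8% of their length, so its counts are uncertain. The adjusted p of Atp6v0b rose to 0.0913 without C2S replicate 1, 0.0784 without C2S replicate 3, 0.0801 without PM_control replicate 2 and 0.0603 without PM_control replicate 3. That of Atp6v0e rose to 0.14 without C2S replicate 2, 0.109 without PM_control replicate 1, 0.0702 without PM_control replicate 2 and 0.0857 without PM_control replicate 3.

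In the V1 sector the 2 genes of the nucleotide-binding ring fell and 4 others rose, none by more than 0.30 on the log2 scale. Atp6v1a, the catalytic subunit, had 253, 225 and 215 CPM against 271, 259 and 260 (-0.19 ± 0.07, edgeR, adjusted p = 0.022), and Atp6v1b2, its partner in the ring, 236, 269 and 230 against 271, 280 and 284 (-0.18 ± 0.07, adjusted p 0.0252). Each C2S value lay below every control value, by a narrow margin. The stator gene Atp6v1c1 had 133, 130 and 119 CPM against 103, 106 and 103 (0.29 ± 0.07, adjusted p 0.00117), and the rotor gene Atp6v1d 29.3, 28.1 and 25.6 against 22.3, 24 and 21.1 (0.30 ± 0.11, adjusted p 0.0232). Atp6v1e1 (0.21 ± 0.09, adjusted p 0.0452), of the stators, and Atp6v1h (0.22 ± 0.09, adjusted p 0.0385), which regulates the attachment of V1 to V0, also rose. Atp6v1f (0.10 ± 0.09) and Atp6v1g1 (0.08 ± 0.10, with shared reads) did not pass the test.

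Of these V1 calls Atp6v1c1 alone held whichever library was left out, and on log2(TPM + 1) it too was lost (limma, 0.0735). The adjusted p of Atp6v1a was 0.125 without C2S replicate 3 and 0.0679 without PM_control replicate 1, 0.318 with the GC trend removed and 0.308 on log2(TPM + 1) (limma). That of Atp6v1b2 was 0.0955, 0.141, 0.0605 and 0.0665 without C2S replicates 1 and 3 and PM_control replicates 2 and 3. For Atp6v1d it was 0.0754 without C2S replicate 1, 0.0606 without PM_control replicate 1 and 0.0867 without PM_control replicate 3. Without C2S replicates 1 and 2 and PM_control replicates 1 and 3, each left out in turn, it was 0.0566, 0.186, 0.158 and 0.118 for Atp6v1e1 and 0.0534, 0.147, 0.204 and 0.0506 for Atp6v1h.

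Of the accessory subunits Atp6ap1 rose and Atp6ap2, the prorenin receptor, did not pass the test. Atp6ap1, which assists assembly and sorting of the pump, had 301, 295 and 295 CPM with C2S against 204, 226 and 199 (0.50 ± 0.06, edgeR, adjusted p = 2.65e-06), with every C2S value higher. Atp6ap2 was at 113 ± 6.92 against 111 ± 1.1 CPM (0.03 ± 0.07, adjusted p 0.72), though it rose when the trend over GC content was removed (0.000952).

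Per unit of length the order of the pump's transcripts was much alike in both groups. In the controls Atp6v0c led with 704 ± 59 TPM, followed by Atp6v0b (309 ± 20.5), Atp6v0e (278 ± 5.47) and Atp6v1f (196 ± 5.71), and Atp6v0d2 was last at 2.54 ± 0.387. Of the 16 neighbouring pairs in that order 5 overlapped over the 3 control libraries: Atp6ap1 with Atp6v1b2, Atp6v1g1 with Atp6v1a, Atp6v1a with Atp6v0d1, Atp6v1c1 with Atp6v1e1, and Atp6v1e1 with Atp6ap2. With C2S Atp6v0d1 stood in place 6 instead of 9 (167 ± 15.5 TPM) and Atp6v0a1 in place 14 instead of 15 (66.4 ± 4.78). Summed over the 7 V0 genes TPM was 1816 to 1967 with C2S and 1414 to 1558 in the controls, whereas over the 8 V1 genes it was 827 to 884 and 856 to 871, ranges that overlapped. Much of the V0 difference was Atp6v0c, a gene with shared reads, at 1005 ± 67.2 TPM with C2S against 704 ± 59. Within V0 the TPM groups of Atp6v0a2, Atp6v0b and Atp6v0e overlapped, while Atp6v0a1 and Atp6v0d1 were higher with C2S and Atp6v0d2 lower.

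**Figure D2:**
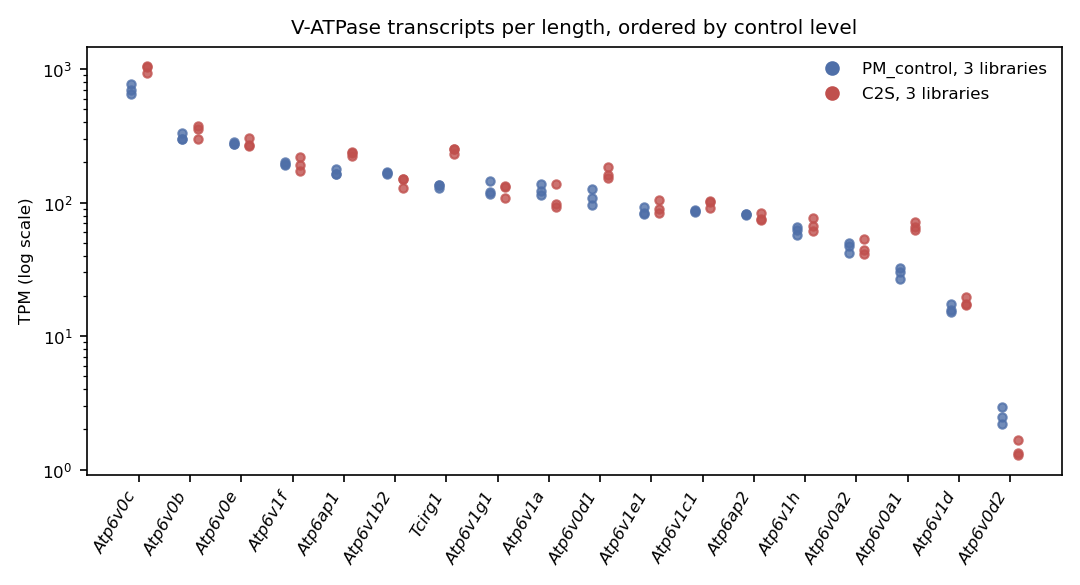
TPM on a log axis of the 17 V-ATPase members and Tcirg1 in each of the 3 control (blue) and 3 C2S (red) libraries, ordered by the control mean. Genes whose C2S points stand clear above the control points include Atp6v0c, Atp6ap1, Tcirg1, Atp6v0d1 and Atp6v0a1, and those of Atp6v1b2 and Atp6v0d2 lie below.

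No Ragulator gene passed the test. Of the 5 genes 0 were called by edgeR (0%, against 55.4% of all genes tested) and 0 by DESeq2. For 1 of them, Lamtor3, the unadjusted edgeR p was under 0.05 (0.0355). The median log2 fold change was 0.03, and the values ran from -0.07 (Lamtor5) to 0.22 (Lamtor3). Lamtor1, whose lipid anchor holds the complex to the lysosome, was at 88.8 ± 2.41 against 88.4 ± 2.66 CPM (0.01 ± 0.07, edgeR, adjusted p = 0.943), with exons that overlap Lrrc51 over 18.7% of their length. Lamtor2 had 55.6, 28.7 and 48.1 CPM with C2S, the second library well under the others, against 42.5, 38.7 and 49 (0.03 ± 0.16), and it passed the test without C2S replicate 2 (0.0486). Lamtor3, part of whose reads are shared with other genes, had 32, 35.3 and 34 CPM against 28.2, 27.9 and 31.1, groups that did not overlap (adjusted p = 0.0617), and it passed on log2(TPM + 1) (limma, 0.0132) and with the GC trend removed (0.00164). Lamtor4 was at 12.7 ± 2.62 against 12.1 ± 0.985 CPM and Lamtor5 at 55.2 ± 6.3 against 58.1 ± 3.61 (edgeR, adjusted p = 0.677 and 0.528), and the groups of both overlapped.

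The Rag GTPases work as pairs of RagA or RagB with RagC or RagD, and their genes moved in opposite directions. Rraga had 30, 29.7 and 24.3 CPM with C2S against 47, 45.7 and 51.5 in the controls. Every C2S value was lower (-0.78 ± 0.10, edgeR, adjusted p = 4.46e-06). Rraga has 1 exon, and 93 of the 192 tested protein-coding genes with 1 exon fell, with a median of -0.47, against 0.00 for those with more exons. The part of this in the Rraga result was not tested. Rragc had 151, 154 and 152 CPM against 102, 104 and 105, with every C2S value higher (0.55 ± 0.06, adjusted p = 6.36e-07). Rragd, which can stand in for Rragc, had 3, 1 and 0 counts against 0, 2 and 0 and was not tested. Rragb, from the pathway lists and chosen after its values were seen, fell from 8.4 ± 0.279 to 5.69 ± 0.386 CPM (-0.56 ± 0.18, adjusted p 0.0147, and 0.0784 by DESeq2). Slc38a9, the arginine sensor of the lysosomal membrane, had 14.8, 13.3 and 17.3 CPM against 16.9, 17.4 and 14.3, which overlapped (-0.09 ± 0.14, adjusted p 0.594).

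All 3 genes of the folliculin complex rose (100%, against 27.0% of all genes tested), each by more than 3-fold. Folliculin with FNIP1 or FNIP2 is the GTPase-activating protein of RagC and RagD, and through RagC it bears on whether the MiT/TFE factors stay in the cytosol. Flcn (chromosome 11, 59791408 to 59810016, GRCm38) had 156, 164 and 169 CPM with C2S against 44.6, 40.5 and 40.9 in the controls (3.88-fold; log2 fold change 1.95 ± 0.07; edgeR, adjusted p = 7.03e-13). Fnip1 had 59.5, 61.2 and 66 CPM against 18.2, 17.7 and 20.6 (3.31-fold; 1.73 ± 0.09; adjusted p = 1.27e-10). Fnip2 (chromosome 3, 79455974 to 79567796) had 808, 933 and 894 CPM against 152, 148 and 148 (5.89-fold; 2.56 ± 0.07; adjusted p = 1.27e-14). In each of them the lowest C2S value was more than 2-fold above the highest control value, and none of the 3 calls was lost under any of the 18 alternatives. Per unit of length Fnip2 was the more abundant partner in both groups, and the share of Fnip1 in the summed TPM of both went from 10.2% ± 0.641 to 5.96% ± 0.37 (SD, n = 3), with no overlap.

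**Figure D3:**
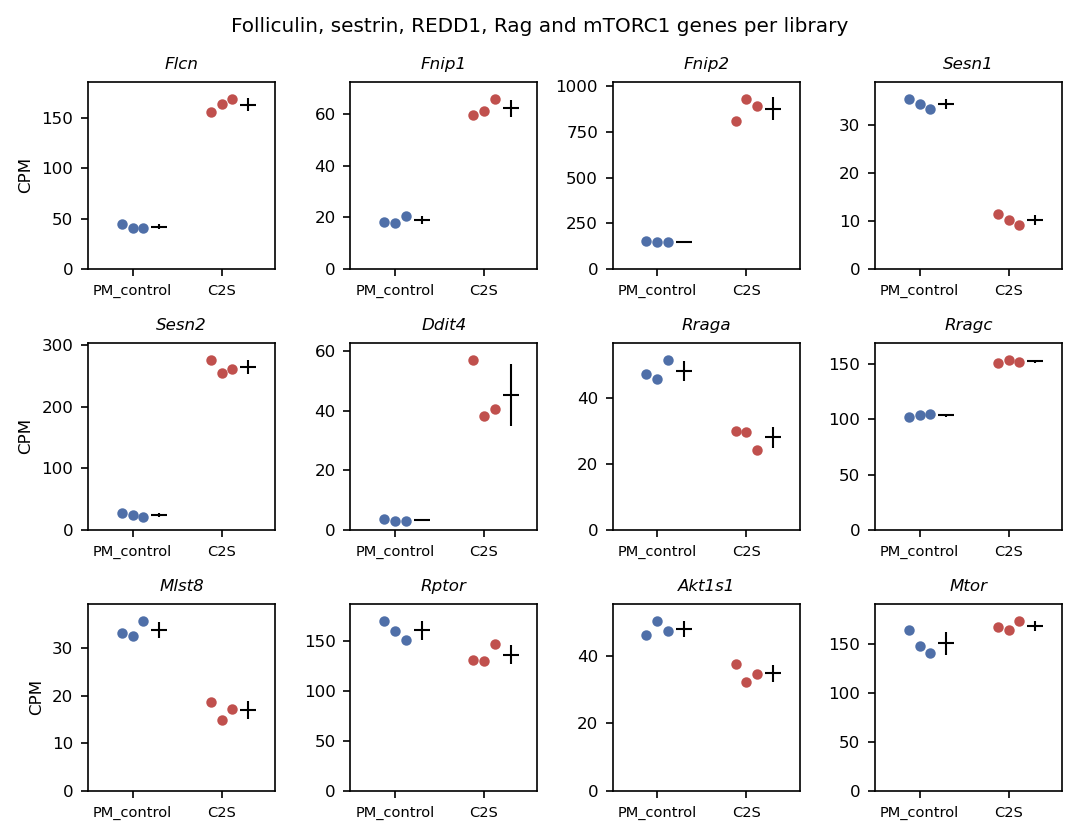
CPM per library of 12 nutrient sensing genes (points; blue PM_control, red C2S), with the mean and SD of the 3 libraries beside them and each vertical axis starting at 0. Flcn, Fnip1, Fnip2, Sesn2, Ddit4 and Rragc are higher with C2S, Sesn1, Rraga, Mlst8, Rptor and Akt1s1 lower, and the Mtor groups lie close to each other.

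GATOR genes, which pass the amino acid signal to the Rag GTPases, changed less. GATOR1 is the GTPase-activating complex that shuts off RagA and RagB. Its subunit gene Nprl2 had 13.1, 14.4 and 13.4 CPM with C2S against 8.07, 8.39 and 6.09, with no overlap (0.85 ± 0.16, edgeR, adjusted p = 0.000316). Depdc5 (-0.05 ± 0.09) and Nprl3 (0.09 ± 0.10), the other GATOR1 genes, did not pass, and exons of Nprl3 overlap Mpg over 17.7% of their length. GATOR2 opposes GATOR1, and 2 of its 3 listed genes fell (66.7%, against 28.4% of all genes tested). Wdr59 had 13.7, 14.2 and 15.1 CPM against 20.7, 20.1 and 20 (-0.51 ± 0.12, adjusted p 0.00196), and Wdr24 17.7, 15 and 16.8 against 20.2, 20.2 and 20.9 (-0.31 ± 0.12, adjusted p 0.0403). Both had all C2S values below the controls. The Wdr24 call was lost without any 1 library except C2S replicate 1 (0.0681 to 0.121), with DESeq2 (0.139) and on log2(TPM + 1) (limma, 0.0573). Mios was at 19.9 ± 2.55 against 21.1 ± 2.37 CPM (-0.09 ± 0.13, adjusted p 0.582).

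The sestrin genes traded places. Sestrins are stress-induced proteins that bind GATOR2 when leucine is scarce and so hold mTORC1 back. Sesn1 is known as a p53 target and Sesn2 as a target of stress factors that include ATF4. Whether any of these factors acted here was not tested. Sesn2 (chromosome 4, 132492032 to 132510501, GRCm38) had 276, 255 and 260 CPM with C2S against 27.3, 24.5 and 21.8 in the controls (10.8-fold; 3.42 ± 0.08; edgeR, adjusted p = 2.47e-15). Sesn1 had 11.4, 10.3 and 9.29 CPM against 35.6, 34.5 and 33.5, a fall of 3.34-fold (-1.73 ± 0.12, adjusted p = 2.15e-09). The groups were far apart for both, and neither call was lost under any alternative. Sesn3 was below the count filter, with 12, 13 and 7 counts against 2, 3 and 2. With no filter its log2 fold change was 2.26 (edgeR, adjusted p = 0.0107). Of the summed sestrin TPM, which was 30 to 34.1 in the controls and 119 to 128 with C2S, Sesn1 held 63.4% ± 2.18 in the controls and 4.39% ± 0.43 with C2S (SD, n = 3). Sesn2 held 36.4% ± 2.2 and 95.1% ± 0.635.

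**Figure D4:**
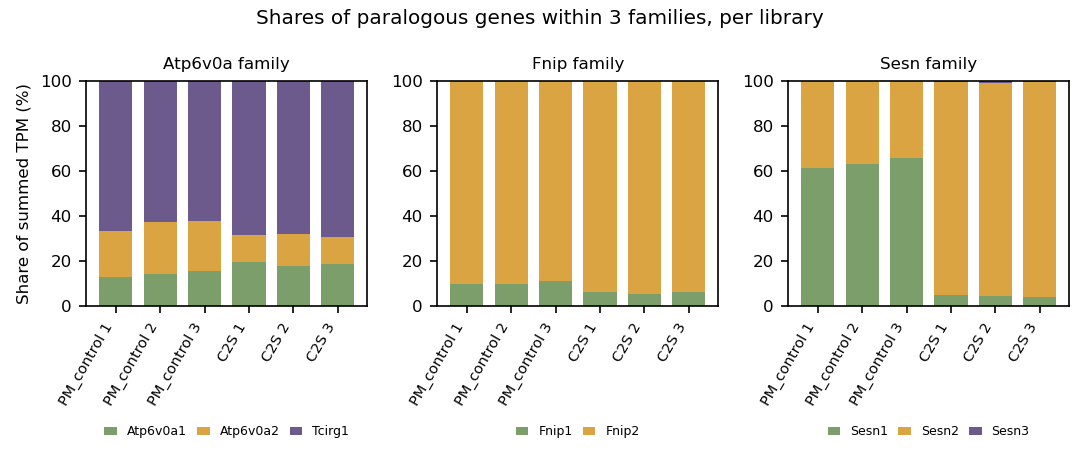
Share of each gene in the summed TPM of its family (vertical axis, percent), per library, for the subunit a genes, the FNIP genes and the sestrins. Sesn1 holds 61.4% to 65.8% of sestrin TPM in the controls and 3.95% to 4.81% with C2S, and the shares of the other families shift less. Sesn3 holds under 1% and is barely visible.

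Ddit4 (chromosome 10, 59949669 to 59951834, GRCm38) had the largest fold change of all tested members. It encodes REDD1, a short-lived protein that restrains mTORC1 through the TSC complex and is induced by low oxygen, energy stress and ATF4. Its level was 57.2, 38.4 and 40.5 CPM with C2S, the first library highest, against 3.67, 3.03 and 3.04 in the controls (14-fold; 3.80 ± 0.18; edgeR, adjusted p = 2.23e-11). The lowest C2S library had 319 counts and the highest control library 40.

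Of the 4 mTORC1 genes 3 fell (75%, against 28.4% of all genes tested), and the kinase gene itself did not pass the test. Mlst8, a small subunit shared with mTORC2 that binds the kinase domain, had 18.7, 15 and 17.2 CPM with C2S against 33.2, 32.5 and 35.8 (-0.99 ± 0.11, edgeR, adjusted p = 1.02e-06), though its exons overlap Bricd5 over 22.5% of their length and its counts are uncertain. Akt1s1, which encodes the inhibitory subunit PRAS40, had 37.5, 32.3 and 34.5 CPM against 46.1, 50.4 and 47.2 (-0.46 ± 0.09, adjusted p 0.000332). Rptor, the scaffold raptor that recruits substrates, had 131, 130 and 147 CPM against 170, 160 and 151 (-0.24 ± 0.07, adjusted p 0.00707), with no overlap but a narrow gap. Mtor had 167, 164 and 174 CPM against 164, 148 and 141 (0.16 ± 0.07, adjusted p 0.0534). It passed without C2S replicate 2 (0.043), without PM_control replicate 1 (0.0149), with RLE (0.0383) or upper quartile scaling (0.0449) and with the replicate block (0.0475), while on log2(TPM + 1) its value was -0.03.

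Of the genes next to mTORC1, Tsc2 rose and Tsc1 and Rheb did not pass. Tsc2, the GTPase-activating subunit that switches Rheb off, had 117, 119 and 124 CPM with C2S against 90.8, 94.3 and 76.5, all higher (0.46 ± 0.08, edgeR, adjusted p = 9.24e-05). Tsc1, its stabilising partner, was at 55.7 ± 4.63 against 47.7 ± 5.03 CPM (0.22 ± 0.09, adjusted p 0.0591) and passed with RLE scaling (0.0469) and without C2S replicate 1 (0.0258) or PM_control replicate 1 (0.0348). Rheb had 68, 60 and 72.9 CPM against 55.1, 59.1 and 61.4, which overlapped (0.20 ± 0.09, adjusted p 0.0648), and it passed with RLE scaling (0.0485), without C2S replicate 2 (0.0137) and with the GC trend removed (0.00899).

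Other genes of the route were taken from 7 lists of 73 genes with a symbol in the tables, of which 63 were tested. Of these 20 rose (31.7%, against 27.0% of all genes tested) and 16 fell (25.4%, against 28.4%), with a median of 0.08, so the lists as a whole lay near the share of all genes. Of 4 tested V-ATPase subunits and isoforms outside the members, 3 were called higher: Tcirg1, Rnasek, which overlaps Gm21988 over 67.7% of its exon length and is uncertain, and Atp6v1g2. Atp6v1g2 had 34, 31 and 24 counts against 7, 7 and 9, so it passed the count filter only through the group where it was high and its call carries little weight. Its log2 fold change was 2.08 by edgeR and 0.82 on log2(TPM + 1). Of 10 assembly factors and regulators of the pump 1 rose (10%, against 27.0% of all genes tested) and 3 fell (30%, against 28.4%). Among those that fell were the assembly factor gene Ccdc115 (-0.61 ± 0.10, adjusted p 4.68e-05 by edgeR) and Dmxl1 (-0.31 ± 0.09, adjusted p 0.00637), of a complex that joins V1 to V0. The Dmxl1 value was 0.02 with the GC trend removed. Rogdi rose (0.60 ± 0.11) and overlaps Gm42477 over 10.2% of its exon length. Its call was lost on log2(TPM + 1) (limma, adjusted p 0.0819).

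Of 16 tested further genes of amino acid sensing and transport 6 rose and 6 fell (37.5% each, against 27.0% and 28.4% of all genes tested). Slc3a2 and Slc7a5, which together form the exchanger that imports leucine, rose by 2.23 ± 0.07 and 1.18 ± 0.06 on the log2 scale (edgeR, adjusted p = 7.32e-14 and 4.66e-11). Bmt2, whose product SAMTOR senses S-adenosylmethionine for GATOR1, fell from 45.1 ± 2.41 to 22.9 ± 2.86 CPM (-0.98 ± 0.10, adjusted p 4.98e-07), and the lysosomal transporter gene Slc15a4 had a log2 fold change of -0.49 ± 0.08 (3.27e-05). Among 8 tested further genes of the mTOR and TSC complexes and their partners 2 rose (25%, against 27.0%) and 1 fell (12.5%, against 28.4%). Those that rose were Mapkap1, of mTORC2 (0.38 ± 0.08), and the mTOR inhibitor gene Deptor (0.45 ± 0.10). On log2(TPM + 1) both calls were lost (limma, adjusted p 0.0615 and 0.37). Tti1, a chaperone of the kinase, fell (-0.94 ± 0.10, edgeR, adjusted p 9.92e-07).

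Of 11 tested genes for mTORC1 substrates and effectors 6 rose (54.5%, against 27.0% of all genes tested) and 1 fell (9.09%, against 28.4%). Ulk1, the kinase that starts autophagy, went from 31.2 ± 2.41 to 157 ± 6 CPM (2.33 ± 0.08, edgeR, adjusted p = 2.3e-13), and Lpin1, a phosphatidate phosphatase that mTORC1 keeps out of the nucleus, from 4.06 ± 0.183 to 29.8 ± 3.48 (2.87 ± 0.15, adjusted p 9.18e-11). Eif4ebp2, a repressor of cap-dependent translation, fell (-0.28 ± 0.06, adjusted p 0.000937). By the edgeR test all 4 MiT/TFE genes passed (100%, against 55.4% of all genes tested). Their products are phosphorylated by mTORC1 and drive lysosomal genes. Tfe3 rose, and Tfeb, Mitf and Tfec fell. Tfe3 went from 126 ± 10.2 to 156 ± 4.95 CPM (0.31 ± 0.07, adjusted p 0.00104), Tfeb from 36.1 ± 3.54 to 23.1 ± 4.31 (-0.64 ± 0.13, adjusted p 0.000385), Mitf from 47.8 ± 3.15 to 35.4 ± 3.65 (-0.43 ± 0.10, adjusted p 0.00105) and Tfec from 2.74 ± 0.152 to 1.45 ± 0.326 (-0.90 ± 0.34, adjusted p 0.0318). The Tfec call, on 9 to 28 counts per library, was lost with DESeq2 (0.128), with the GC trend removed (0.118), and without C2S replicate 1 (0.0649), C2S replicate 2 (0.107) or PM_control replicate 1 (0.057), 2 (0.0838) or 3 (0.0778). The Tfe3 call was lost on log2(TPM + 1) (limma, 0.253). Among AKT and AMPK genes, Akt2 rose (0.26 ± 0.07, edgeR, adjusted p 0.00363, with shared reads) and Prkaa1, a catalytic subunit of AMPK, fell (-0.64 ± 0.09, adjusted p 1.02e-05). The Akt2 call was lost on log2(TPM + 1) (limma, 0.133).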

How the data were processed

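The authors deposited 1 table per library. Per the labels and the series' description, fastp removed adapters, STAR aligned to mm10 and RSEM did the counting. Tool versions, the annotation and the use of strand were not found in these sources. Deposited expected counts are RSEM's estimates for each gene, and deposited TPM values are scaled for length and depth. Symbols, coordinates and exon overlap (on either strand, uncertain from 10%) came from GENCODE M21 (GRCm38), which held 52489 of 52636 genes.

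Counts were rounded, filtered with filterByExpr (minimum count 10, total 15) and tested with edgeR 4.0.16 (TMM, quasi-likelihood F test; limma 3.58.1, DESeq2 1.42.0, R 4.3.3), C2S against PM_control. The SE is the log2 fold change divided by the square root of F. Values in every library are given for up to 2 members per complex and direction by adjusted p, for paralog families and for key mTORC1 genes, and up to 2 genes per direction from each pathway list. Members and lists were chosen with earlier results of these data known. The fit was tested on simulated data. The 18 alternatives covered scaling, tool, TPM, filter, rounding, GC content, a 1.5-fold threshold, the replicate block and each library left out. Values of some genes in the marker and pathway lists are not reported here.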

Additional observations from a re-analysis of the deposited data

How the results depend on the processing

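Of the 28 calls among the members, 8 held under all 18 alternatives, 18 held under all but the glmTreat test against 1.5-fold, and 9 were lost without some library. Under glmTreat 6 members rose and 2 fell (V-ATPase 1 and 0, nutrient sensing 5 and 2), and 1928 genes were called in all. V-ATPase members that rose numbered 5 with library sizes alone, 6 with DESeq2, 6 with no filter on low counts and 4 on log2(TPM + 1), and those that fell 1 on log2(TPM + 1) and 1 with the GC trend removed. Leaving out each library in turn, 14 to 18 members rose and 6 to 9 fell, with 5 to 9 and 0 to 3 for the V-ATPase, 9 to 11 and 6 to 7 for nutrient sensing, and 5901 to 6338 genes called in all. The replicate block gave 19 members higher, 9 lower and 6489 genes called. Whether libraries with the same replicate number belong together is not recorded, and correlations over 3 libraries per group cannot settle it. Deviations of same-numbered libraries correlated at -0.0112, 0.0686 and 0.0344, and not every library correlated best with its own number. The cause of these changes was not tested.

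As shares of CPM, which ignore length, Tcirg1 held 63.3% with C2S and 54.5% in the controls, Atp6v0a2 19.8% and 31.3%, Atp6v0a1 17% with C2S, Atp6v0d2 1.4% and 3.69%, Fnip1 6.63% and 11.2%, Sesn1 3.75% and 58.3%, and Sesn2 95.8% and 41.3%.

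The sign changed only for members that did not pass the test. With library sizes alone the log2 fold change was -0.01 for Atp6v1g1, -0.06 for Atp6ap2, -0.08 for Lamtor1, -0.05 for Lamtor2 and 0.00 for Lamtor4 and Nprl3. On log2(TPM + 1) it was 0.00 for Atp6v0a2, -0.02 for Atp6v1f, -0.03 for Atp6v1g1, -0.07 for Atp6ap2, -0.11 for Lamtor1, -0.15 for Lamtor2, -0.04 for Lamtor4, -0.03 for Mtor and -0.04 for Tsc1. With no filter it was -0.02 for Lamtor1, and with the GC trend removed -0.05 for Lamtor2, 0.01 for Slc38a9 and 0.04 for Mios. Leaving out each library in turn gave -0.02 to 0.07 for Atp6ap2, -0.01 to 0.03 for Lamtor1, -0.17 to 0.26 for Lamtor2, -0.02 to 0.24 for Lamtor4, -0.13 to 0.02 for Lamtor5, -0.11 to 0.02 for Depdc5 and -0.19 to 0.00 for Mios.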

Other observations

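The deposited gene length, which can differ between libraries where a gene has several transcripts, stood apart between the groups in 8 of the 44 tested members, against 12.3% of all genes tested. It was 2379, 2643 and 2543 bases with C2S and 2957, 3129 and 2661 in the controls for Atp6v0a1, 1074, 1248 and 1142 against 1308, 1275 and 1294 for Lamtor3, and 1273, 1454 and 1364 against 1487, 1488 and 1529 for Akt1s1. The others were Atp6v0e, Lamtor1, Flcn, Fnip2 and Rheb.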
